A study of Drosophila melanogaster with 30 samples.

Results

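HR3-RNAi larvae were compared with driver-only control larvae after refeeding with cholesterol, using 10 of the 30 RNA-seq libraries in the series. HR3-RNAi animals carried Tub-GAL80TS/+, Tub-GAL4/+ and UAS-Hr3-RNAi/+, and controls carried Tub-GAL80TS/+ and Tub-GAL4/+ with no UAS transgene. Both groups had spent 10 h on food with 1.2 µg/mL cholesterol and then 10 h with 80 µg/mL (refed), and each was represented by 5 libraries. The HR3-RNAi and control groups kept on 1.2 µg/mL cholesterol (low cholesterol, 5 libraries each), and refed larvae with UAS-Tor-RNAi/+ on the same driver (TOR-RNAi, 5 libraries), were used for comparison. All animals were reared at 18 °C and moved to 29 °C before the diets began. Each library was made from a pool of 5 whole larvae of the last instar.

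HR3 is a nuclear receptor of the ROR family, known in flies for its role in the wave of transcription factors that the steroid hormone ecdysone sets off at the onset of metamorphosis. Flies cannot make sterols and take cholesterol from food, both for membranes and as the raw material of ecdysone. Tub-GAL4 is active in nearly all tissues, and the temperature-sensitive GAL80 holds it off at the lower temperature. The comparison with refed controls therefore asks what a ubiquitous HR3 RNAi transgene, switched on late in larval life, does to the transcriptome when sterol is supplied.

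The design sets limits on what a difference means. The RNAi animals are described as 1 genotype, so the effect of the knockdown and that of the transgene's insertion and genetic background cannot be told apart. The controls carried no RNAi against an unrelated sequence. In whole larvae, fewer cells of a type and less RNA per cell cannot be told apart. Whether replicate pools came from separate cultures is not stated, so p-values measure the spread between these pools.

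Transcripts of the targeted gene were too few to check the knockdown. Hr3 (FBgn0000448) had 7, 6, 5, 6 and 6 counts in the HR3-RNAi refed libraries, against 4, 6, 5, 17 and 2 counts in control refed libraries. As CPM (counts scaled by library size), it averaged 0.207 ± 0.0265 CPM in HR3-RNAi refed larvae and 0.299 ± 0.294 CPM in control refed larvae (SD, n = 5 each; exact permutation test, two-sided, p = 0.937, where the smallest p possible is 0.00794). Control replicate 4 sets the control mean: without it the difference was 0.039 CPM, higher in HR3-RNAi larvae, and with it -0.0914 CPM. A decrease in Hr3 was not detectable at this depth against controls. Against TOR-RNAi refed larvae, which had 0.512 ± 0.13 CPM (SD, n = 5), the log2 fold change was -1.30 (adjusted p = 0.0201). None of the results below is tied to a measured loss of Hr3 transcript.

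Library depth and the makeup of the pools differed somewhat between the groups. Total counts ranged from 26309990 to 33331771 in HR3-RNAi refed libraries and from 19744564 to 29460479 in control refed libraries (exact permutation test on the means, p = 0.0714). The summed level of 19 testis genes, those of 20 listed that were found among the features, was 90.7 to 410 CPM (median 309) in HR3-RNAi refed libraries and 1.99 to 408 CPM (median 127) in control refed libraries (exact permutation test, p = 0.190). The male-specific RNAs roX1 and roX2 summed to 54.4 to 132 CPM in HR3-RNAi refed libraries and 10.2 to 166 CPM in control refed libraries (exact permutation test, p = 0.214). Control refed replicate 2 held the lowest value of both sums and stood apart on the first principal component, which carried 70.3% of the variance. All 18 testis genes tested had log2 fold changes above 0 (median 0.79), and 0 passed the test. Among the 2176 genes with a mean under 2 CPM, the median log2 fold change was 0.50, against 0.10 with the roX level as a covariate and 0.37 without control refed replicate 2. The part that the mix of sexes plays in the differences below was not tested beyond these fits.

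Of the 11450 genes that passed the filter on low counts, 1263 (11.0%) differed between HR3-RNAi refed and control refed larvae. Of these, 385 (3.36%) were higher and 878 (7.67%) were lower in HR3-RNAi larvae, at a false discovery rate under 0.05 (quasi-likelihood test in edgeR, Benjamini-Hochberg), and these calls are meant by "rose" and "fell" below. Most changes were small: the median log2 fold change was 0.54 among genes that rose and -0.33 among genes that fell, and 659 of those that fell did so by less than 0.5 on the log2 scale. Only 86 of the genes that rose and 76 of those that fell changed by more than 1 on that scale. The 5 HR3-RNAi refed libraries lay wholly above or wholly below the 5 control refed libraries for 1082 genes (9.45%), above for 500 (4.37%) and below for 582 (5.08%).

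The number of genes called depended on which libraries set the spread. In 1 fit of all 30 libraries, 484 genes were called (171 higher, 313 lower), and with the roX level as a covariate 803 (325 higher, 478 lower). Single libraries moved it by over 1.5 times: 812 genes were called without HR3-RNAi refed replicate 4, 823 without control refed replicate 1, 800 without control refed replicate 3 and 765 without control refed replicate 5.

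**Figure D1:**
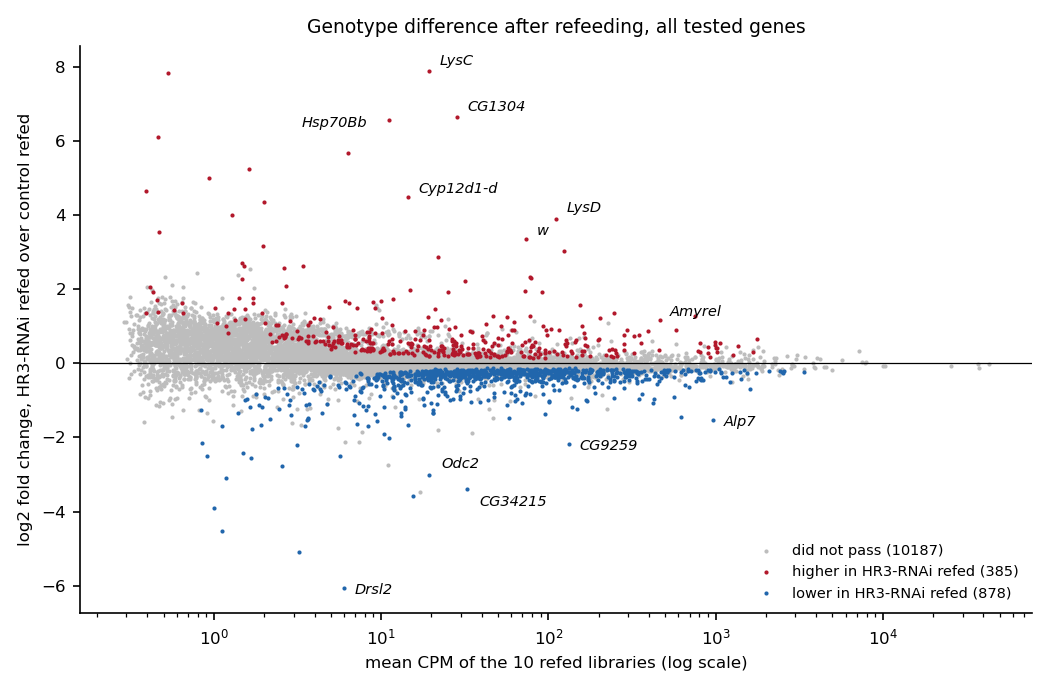
Log2 fold change (HR3-RNAi refed over control refed, y axis) of every gene tested against its mean level over the 10 refed libraries (CPM, log axis), 1 point per gene, with the 385 genes that rose and the 878 that fell in colour and the 10187 others in grey. The largest rises and falls lie at low and middle levels, while most genes that fell cluster just below 0 at levels above 10 CPM.

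The largest rises included lysozyme genes, the chaperone gene Hsp70Bb, a P450, a peroxiredoxin and the white gene. By the rule used to name genes (adjusted p under 0.05, a mean log2 CPM over the 10 libraries of at least 1, no overlap between the groups), the 10 largest rises were CG1304, Hsp70Bb, Cyp12d1-d, LysD, *w*, LysB, Prx6c, LysP, CG15534 and an unannotated locus. CG1304 (FBgn0031141; X chromosome, 20964527 to 20965419 in Ensembl's BDGP6.54 annotation, release 115) had 63, 44, 50.4, 55.7 and 69.5 CPM in HR3-RNAi refed libraries, against 0.563, 0.697, 0.391, 0.627 and 0.473 CPM in control refed libraries. It was nearly silent in each control pool and at a moderate level in each HR3-RNAi pool (log2 fold change 6.64, SE 0.174, adjusted p = 8.35e-09). Cyp12d1-d, a mitochondrial cytochrome P450 linked to insecticide metabolism, had 37.4, 26.3, 28.3, 23.3 and 24 CPM in HR3-RNAi refed libraries, against 1.47, 1.13, 1.25, 1.35 and 0.945 CPM in control refed libraries (log2 fold change 4.48, SE 0.162). Its near-identical neighbour Cyp12d1-p averaged 17.9 ± 1.98 CPM in HR3-RNAi refed larvae and 13.4 ± 3.77 CPM in control refed larvae and did not pass the test (adjusted p = 0.162), and how the counting divided reads between the copies is uncertain.

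Lysozymes of the chromosome 3L cluster, which in flies are largely midgut enzymes that digest bacterial cell walls, showed the steepest contrast. LysC had 48, 37.3, 51.4, 37.9 and 19.5 CPM in HR3-RNAi refed libraries, against 0, 0.0995, 0.626, 0 and 0 CPM in control refed libraries. In raw counts this was 642 to 1372 in each HR3-RNAi library and 19 over all 5 control libraries together, so the fitted log2 fold change of 7.87 is of uncertain size. LysC, which the annotation lists as a pseudogene (3L, 1210485 to 1210726, plus strand), overlaps the 3′ end of LysD (3L, 1210717 to 1211196, minus strand). LysD had 241, 186, 294, 239 and 89.2 CPM in HR3-RNAi refed libraries, against 0, 23.4, 24.8, 14.9 and 4.99 CPM in control refed libraries (log2 fold change 3.90, SE 0.741). LysB had 231, 169, 274, 308 and 130 CPM in HR3-RNAi refed libraries, against 7.19, 36.8, 52.5, 22 and 14.6 CPM in control refed libraries (log2 fold change 3.03). In each of these genes every HR3-RNAi pool exceeded every control pool, but the control pools varied widely, and reads shared between the near-identical LysB, LysC, LysD and LysE could be divided differently. Of 7 lysozyme genes tested, LysC included, 5 (71.4%) rose and 0 fell, beside 3.36% and 7.67% over all genes. The list was chosen after values were seen. LysS, the most abundant at 2130 ± 331 CPM in HR3-RNAi refed larvae and 1690 ± 276 CPM in control refed larvae, did not pass the test (adjusted p = 0.154).

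The white gene, which encodes an ABC transporter of eye pigment precursors, rose in all pools to a similar extent. *w* (X chromosome, 2790599 to 2796466, same annotation) had 158, 120, 113, 132 and 155 CPM in HR3-RNAi refed libraries, against 14.9, 10.5, 13.3, 14.3 and 12.6 CPM in control refed libraries (log2 fold change 3.35, SE 0.114, adjusted p = 6.93e-08). A white minigene is the usual marker of fly transgenes, and HR3-RNAi animals carried 1 transgene more than controls; its part in the w reads was not tested. Hsp70Bb, a stress-inducible chaperone, had 24.7, 23.5, 16.9, 19.1 and 26.5 CPM in HR3-RNAi refed libraries, against 0.0867, 0.133, 0.391, 0.29 and 0.263 CPM in control refed libraries. Hsp70Ab, the other Hsp70 gene with enough counts to test, averaged 0.599 CPM in HR3-RNAi refed larvae and 0.251 CPM in control refed larvae and missed the threshold (log2 fold change 1.21, adjusted p = 0.0812), and reads of these near-identical copies may be divided unevenly. Of 21 heat shock protein genes tested, 1 (4.76%) rose, beside 3.36% over all genes. Another 3 (14.3%) fell, beside 7.67%: Hsp60A (-0.36), Hsc70-5 (-0.34) and Hsc70-4 (-0.21). Without control refed replicate 4 the number called was 7. CG15534 averaged 130 ± 9.03 CPM in HR3-RNAi refed larvae and 25.4 ± 10.4 CPM in control refed larvae, and Prx6c, a peroxiredoxin, 38.7 ± 9.83 CPM and 5.26 ± 1.35 CPM in the same groups (SD, n = 5 each).

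The largest falls included the pair of ornithine decarboxylase genes, secreted proteins and a P450. The 10 largest by the same rule were CG34215, Odc2, Odc1, Obp83cd, CG9259, CG11313, Cyp6a17, Nepl11, CG14820 and CG31664. CG34215 had 4.56, 4.61, 4.61, 6.31 and 8.64 CPM in HR3-RNAi refed libraries, against 66.3, 60.6, 62.9, 53.4 and 55.9 CPM in control refed libraries (log2 fold change -3.39, SE 0.167, adjusted p = 7.7e-07). Odc2, which with Odc1 encodes the enzyme of the first step of polyamine synthesis, had 5.06, 3.4, 5.32, 3.51 and 4.47 CPM in HR3-RNAi refed libraries, against 42.1, 29.1, 32.7, 34 and 34.8 CPM in control refed libraries (log2 fold change -3.0, SE 0.137). Odc1 had 1.78, 0.922, 2.77, 1.81 and 1.25 CPM in HR3-RNAi refed libraries, against 8.62, 14, 9, 5.26 and 11.1 CPM in control refed libraries (log2 fold change -2.51). Both genes were low in every HR3-RNAi pool. SamDC, which supplies the aminopropyl donor of the same pathway, also fell, by 0.28 on the log2 scale. Of 6 polyamine genes tested, a list chosen after values were seen, 3 (50%) fell and 0 rose, beside 7.67% and 3.36% over all genes.

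Among the other large falls, CG9259 averaged 48.2 ± 9.79 CPM in HR3-RNAi refed larvae and 218 ± 35.5 CPM in control refed larvae, and the P450 Cyp6a17 averaged 4.40 ± 0.672 CPM and 16.4 ± 6.12 CPM in the same groups (SD, n = 5 each). Obp83cd, a member of the odorant-binding protein family, had 0.993 to 1.35 CPM in HR3-RNAi refed libraries and 3.2 to 11 CPM in control refed libraries, the highest in control refed replicate 2. Some genes under the level rule fell further. Drsl2, an antifungal peptide of the Drosomycin family, had 0.249, 0.0709, 0.15, 0.205 and 0.213 CPM in HR3-RNAi refed libraries, against 8.58, 13, 12.4, 15.5 and 10.2 CPM in control refed libraries. With 2 to 7 counts per HR3-RNAi library it was close to absent there, and the fitted log2 fold change of -6.05 is of uncertain size. Adh, the alcohol dehydrogenase of larval fat body and gut, was named after its values were seen: it averaged 0.654 ± 0.232 CPM in HR3-RNAi refed larvae and 4.49 ± 1.53 CPM in control refed larvae (log2 fold change -2.77, adjusted p = 0.000434).

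**Figure D2:**
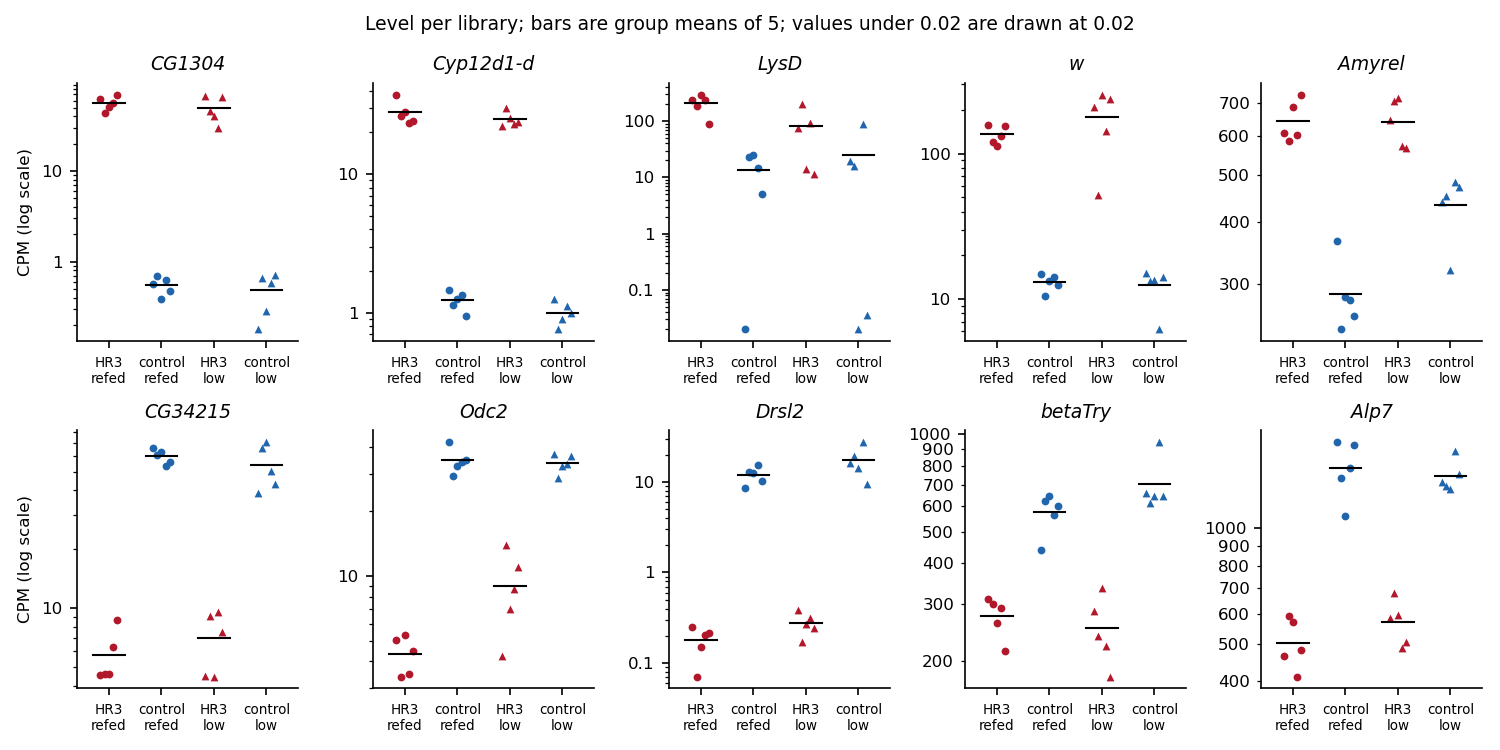
Levels of 10 genes in single libraries (CPM, log axes; values under 0.02 drawn at 0.02) for HR3-RNAi refed, control refed, HR3-RNAi low-cholesterol and control low-cholesterol larvae, 1 point per library with the group mean as a line. The HR3-RNAi refed points lie wholly above the control refed points for CG1304, Cyp12d1-d, LysD, w and Amyrel, and wholly below them for CG34215, Odc2, Drsl2, betaTry and Alp7.

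Mitochondrial ribosomal protein genes, whose products build the ribosome that translates the mitochondrial genome, were lower as a group. Of 72 tested, 38 (52.8%) fell and 1 rose, beside 7.67% and 3.36% over all genes, and 70 had a log2 fold change below 0 (median -0.26, against 0.01 over all genes). Their summed level was 1560, 1490, 1580, 1470 and 1510 CPM in HR3-RNAi refed libraries, against 1880, 1650, 1910, 1600 and 1840 CPM in control refed libraries. The sums of the groups did not overlap, and the lowest control sums were those of replicates 2 and 4, which also held the lowest and the highest roX level among controls. The steepest fall was that of mRpL55, with 15.3, 12.9, 15.4, 14.6 and 11.9 CPM in HR3-RNAi refed libraries, against 20.6, 20.1, 23.6, 18.9 and 21.6 CPM in control refed libraries (log2 fold change -0.59, SE 0.0836, adjusted p = 0.00144). mRpL48 and mRpL21 each fell by 0.45 on the log2 scale. mRpL37 was the exception: it had 51.9, 47.7, 50.1, 46.1 and 51.4 CPM in HR3-RNAi refed libraries, against 30.4, 30.3, 31.3, 29.6 and 35.7 CPM in control refed libraries (log2 fold change 0.64, adjusted p = 7.07e-05).

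The count of mitochondrial ribosomal genes that fell was sensitive to single pools. It was 14 without control refed replicate 1, 15 without control refed replicate 3, 16 without control refed replicate 5, 18 without HR3-RNAi refed replicate 1, 24 without HR3-RNAi refed replicate 2 and 23 without HR3-RNAi refed replicate 4. It was 18 with the roX level as a covariate and 3 in the fit of all 30 libraries. On low cholesterol 0 of 72 fell and 1, mRpL37, rose, with a median of -0.14.

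**Figure D3:**
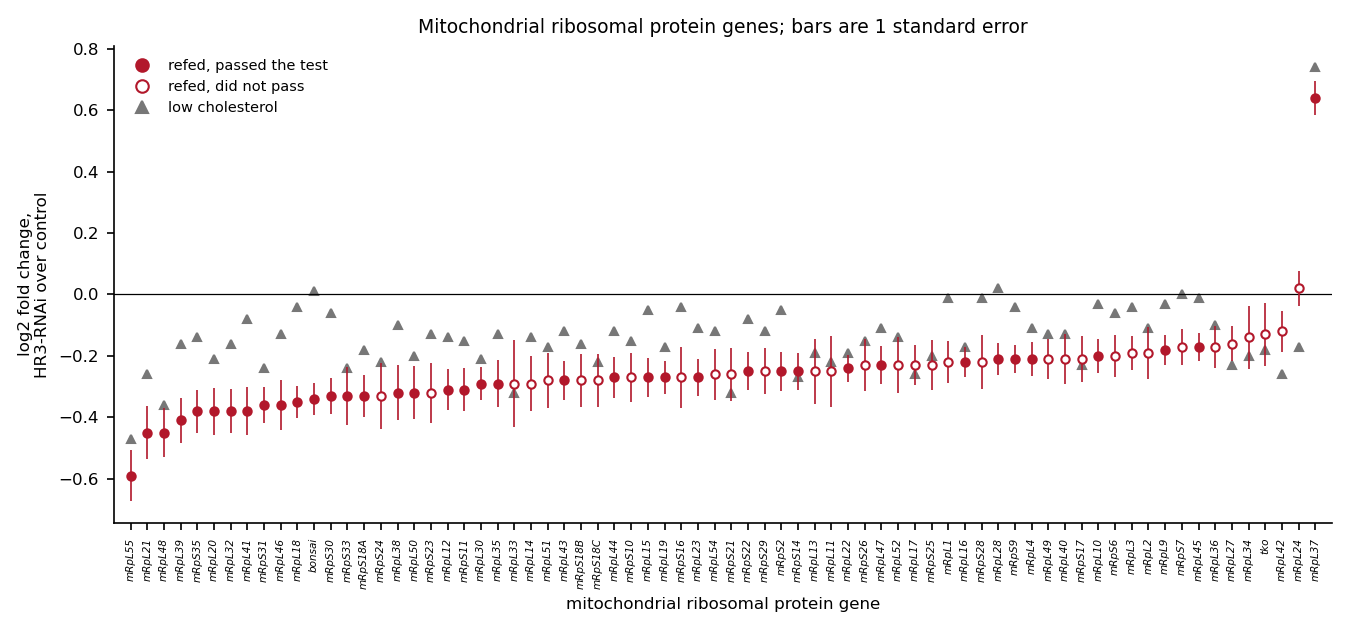
Log2 fold change of the 72 mitochondrial ribosomal protein genes, ordered by their value after refeeding (HR3-RNAi over control; points with bars of 1 standard error), with the value on low cholesterol beside each. After refeeding 70 of the 72 lie below 0 and mRpL37 alone lies well above it, while the low-cholesterol values scatter closer to 0 around a median of -0.14.

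Members of other lists that serve protein synthesis and mitochondria fell by small amounts. Falls were common among abundant genes in general: of 1429 genes with a mean above 100 CPM, 253 fell and 70 rose (median -0.08). Of 27 genes for mitochondrial protein import and translation factors, a list chosen after values were seen, 12 (44.4%) fell and 0 rose (median -0.18). Those that fell include the elongation factor mEFG1 (-0.50), the initiation factor mIF2 (-0.37) and the import pore Tom40 (-0.36). Of 31 aminoacyl-tRNA synthetases, which charge tRNAs, 11 (35.5%) fell and 0 rose (median -0.16). The largest fall was in the mitochondrial ProRS-m, at 7.32 ± 0.683 CPM in HR3-RNAi refed larvae and 9.48 ± 1.31 CPM in control refed larvae. The next was in the cytosolic AsnRS, at 141 ± 7.07 CPM and 175 ± 7.68 CPM in the same groups. Of 93 oxidative phosphorylation genes, 14 (15.1%) fell and 0 rose (median -0.12), a share near that of abundant genes, led by ATPsynCF6 (-0.36) and the complex I subunit ND-PDSW (-0.29). The chaperones of the mitochondrial matrix Hsp60A (-0.36) and Hsc70-5 (-0.34) fell as well. Of 80 cytosolic ribosomal protein genes 0 passed the test (3 fell without control refed replicate 4), with a median of -0.06, close to that of abundant genes. Of 46 proteasome subunits 3 (6.52%) fell (Prosbeta4, Rpn12 and Rpn6, by 0.14 to 0.17), beside 7.67% over all genes. In the fit of all 30 libraries, 0 import and translation factors, 2 synthetases and 0 oxidative phosphorylation genes fell, and without control refed replicate 1 the counts were 6, 5 and 3. With any other library left out they ran from 6 to 12, 4 to 13 and 3 to 19, the lowest without control refed replicate 3, and 0 or 1 proteasome subunit fell without any library but control refed replicate 4. No list in this paragraph had a member that fell on low cholesterol.

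Secreted matrix proteins followed the same direction. Basement membranes are sheets of collagen IV, laminin and associated proteins around tissues, secreted in larvae mainly by fat body and hemocytes. Of 11 such genes tested, a list chosen after their values were seen, 7 (63.6%) fell and 0 rose (median -0.29), beside 7.67% and 3.36% over all genes. The collagen IV chain Col4a1 had 1210, 1220, 1200, 1210 and 1270 CPM in HR3-RNAi refed libraries, against 1730, 1500, 1620, 1490 and 1790 CPM in control refed libraries (log2 fold change -0.43, SE 0.0497, adjusted p = 0.000405). Its partner chain vkg had 671, 682, 670, 682 and 680 CPM in HR3-RNAi refed libraries, against 915, 827, 890, 823 and 980 CPM in control refed libraries (log2 fold change -0.40). The HR3-RNAi pools lay within a narrow band below all control pools. The collagen-binding SPARC (-0.44), the collagen-modifying Plod (-0.45) and PH4alphaEFB (-0.29), and the laminin chains LanA (-0.29) and LanB2 (-0.28) made up the rest. Of 19 endoplasmic reticulum folding genes, also listed after their values were seen, 8 (42.1%) fell, among them Grp170 (-0.36) and Calr (-0.27), and 0 rose. The number was 3 without control refed replicate 3, 4 to 5 without HR3-RNAi refed replicate 1, 2, 4 or 5 or control refed replicate 1 or 5, and 0 in the fit of all 30 libraries.

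On low cholesterol Col4a1 averaged 1350 CPM in HR3-RNAi larvae and 1380 CPM in controls (log2 fold change -0.03), and 0 of the 11 basement membrane genes passed the test there. In edgeR's interaction contrast, 7 genes of this list passed an unadjusted threshold of 0.05, Col4a1 and vkg among them, beside 6.72% of all genes. Once p was adjusted over the 12178 genes of that fit, 0 of them passed. The list was chosen after its refed values were seen, and those values enter the contrast. The 7 genes are therefore no independent evidence that the HR3-RNAi effect depends on diet. The hemocyte list, in which the collagen chains also stand, summed to 2790 to 3140 CPM in HR3-RNAi refed libraries and 3310 to 3950 CPM in control refed libraries. Its other members Hml, at 221 ± 23.6 CPM in HR3-RNAi refed larvae and 201 ± 13.4 CPM in control refed larvae, NimC1 (0.41), Pxn (0.08) and PPO2 (-0.002) did not pass the test.

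Several sterol and lipid transport genes fell. Of 22 genes for sterol uptake and targets of the sterol-sensing receptor Hr96, 7 (31.8%) fell and 2 (9.09%) rose, beside 7.67% and 3.36% over all genes (median -0.10, against 0.01). Mtp, which loads lipid onto lipoproteins, had 177, 163, 167, 163 and 167 CPM in HR3-RNAi refed libraries, against 247, 217, 229, 209 and 242 CPM in control refed libraries (log2 fold change -0.47, SE 0.0440, adjusted p = 0.000103). The lipoprotein receptor LpR1 had 47.8, 40.7, 41.5, 48 and 45.6 CPM in HR3-RNAi refed libraries, against 55.8, 58.9, 59.5, 59.1 and 64.3 CPM in control refed libraries (log2 fold change -0.43, adjusted p = 0.00102). Apoltp, the lipid transfer particle that loads lipoproteins at the gut, averaged 148 ± 12.3 CPM in HR3-RNAi refed larvae and 228 ± 47.6 CPM in control refed larvae (log2 fold change -0.63). All of them concern the carriage of lipid in hemolymph.

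Of the NPC2-type sterol-binding proteins, Npc2h (-0.70), Npc2c (-0.44) and Npc2g (-0.42) fell and Npc2b (0.35) rose, whereas Npc1a (0.06), Npc1b (0.07) and Npc2a (0.06), the transporters of sterol uptake and lysosomal export, and Hr96 itself (0.02) did not pass the test. The lipase magro, mag, which hydrolyses dietary fat and sterol esters in the gut, had 1070, 974, 1050, 1110 and 1010 CPM in HR3-RNAi refed libraries, against 800, 597, 723, 896 and 761 CPM in control refed libraries (log2 fold change 0.45, adjusted p = 0.0102).

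Of 24 genes for fatty acid synthesis and fat storage, 4 (16.7%) rose and 4 (16.7%) fell, beside 3.36% and 7.67% over all genes. Without control refed replicate 5 the numbers were 3 and 2. The starvation-responsive lipase Lip3 averaged 124 ± 30.9 CPM in HR3-RNAi refed larvae and 72.5 ± 8.46 CPM in control refed larvae (log2 fold change 0.75, adjusted p = 0.00995). ACC, the committed step of fatty acid synthesis, averaged 697 ± 59 CPM in HR3-RNAi refed larvae and 950 ± 101 CPM in control refed larvae (-0.46), and AcCoAS, which makes acetyl-CoA, fell by 0.46 on the log2 scale as well. Of 16 glycolysis genes, 3 (18.8%) fell, among them Tps1 (-0.50), which makes the blood sugar trehalose, and Gpdh1 (-0.36), and 0 rose.

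Digestive enzymes changed in both directions. Of 41 midgut proteases and sugar enzymes tested, 5 (12.2%) rose and 5 (12.2%) fell, beside 3.36% and 7.67% over all genes. All of those that rose digest sugars or starch. Amyrel, an amylase relative, had 607, 586, 686, 604 and 728 CPM in HR3-RNAi refed libraries, against 367, 242, 282, 278 and 258 CPM in control refed libraries (log2 fold change 1.16, SE 0.100, adjusted p = 6.13e-05). The maltase Mal-A5 had 139, 109, 94.6, 100 and 115 CPM in HR3-RNAi refed libraries, against 39.3, 45.3, 50.2, 56.2 and 34.1 CPM in control refed libraries (log2 fold change 1.29). Amy-p (0.88), Mal-A4 and Mal-A8 rose too; Amy-d, a near-identical copy of Amy-p, did not pass the test (0.12, adjusted p = 0.582).

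Of the 5 digestive genes that fell, 4 were serine proteases. thetaTry had 62.6, 50.7, 46.9, 54.8 and 52.7 CPM in HR3-RNAi refed libraries, against 143, 116, 144, 163 and 119 CPM in control refed libraries (log2 fold change -1.37, SE 0.102, adjusted p = 1.81e-05). betaTry had 311, 299, 262, 291 and 215 CPM in HR3-RNAi refed libraries, against 441, 625, 644, 562 and 600 CPM in control refed libraries (log2 fold change -1.08). epsilonTry (-0.90) and Jon99Fi (-0.94) fell with them, as did the maltase Mal-B2. CG6295, a predicted lipase named after its values were seen, averaged 333 ± 24.9 CPM in HR3-RNAi refed larvae and 907 ± 140 CPM in control refed larvae (log2 fold change -1.46). The summed level of the whole list was alike, at 32600 to 39800 CPM in HR3-RNAi refed libraries and 32000 to 38200 CPM in control refed libraries.

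Alkaline phosphatases, brush-border enzymes of gut and tubule, were listed after their values were seen. Of 9 tested 3 (33.3%) fell and 0 rose, beside 7.67% and 3.36% over all genes. Alp7 had 465, 593, 570, 411 and 481 CPM in HR3-RNAi refed libraries, against 1680, 1350, 1080, 1440 and 1650 CPM in control refed libraries (log2 fold change -1.53, SE 0.139, adjusted p = 8.43e-05). Alp8 (-1.19) and Alp4 (-0.95) followed. Among 18 neprilysin-like proteases, also listed after values were seen, 6 (33.3%) fell, including Nepl11 (-1.69), Nepl4 (-1.16) and Nepl10 (-1.02), and 2 (11.1%) rose, Nepl3 (0.93) and Nepl9 (0.71). Of 16 tetraspanins of the 42E cluster on chromosome 2R, also listed after values were seen, 4 (25%) rose and 0 fell (2 rose without control refed replicate 1). The steadiest, Tsp42Eg, averaged 137 ± 2.97 CPM in HR3-RNAi refed larvae and 71.7 ± 6.38 CPM in control refed larvae.

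Detoxification families changed in both directions. Of 76 cytochrome P450 genes tested, 11 (14.5%) rose and 10 (13.2%) fell, and without control refed replicate 5 the numbers were 8 and 5. Over all genes 3.36% rose and 7.67% fell. Besides Cyp12d1-d, the large rises were Cyp6t3, at 3.99, 3.51, 3.6, 2.86 and 3.68 CPM in HR3-RNAi refed libraries against 0.303, 0.531, 0.313, 0.29 and 0.473 CPM in control refed libraries, and Cyp6w1, at 50.4, 34.9, 41.1, 38.6 and 34.8 CPM in HR3-RNAi refed libraries against 11.1, 8.72, 9.94, 9.07 and 13.5 CPM in control refed libraries. Cyp4e3 rose by 2.63 and Cyp6a2 by 1.24 on the log2 scale. Cyp6a17 (-1.92), Cyp28a5 (-0.82) and Cyp4d1 (-0.63) were among those that fell. Of 33 glutathione S-transferases, 5 (15.2%) rose, with GstE5 (0.96) and GstT4 (0.63) foremost, and 7 (21.2%) fell, with GstD5 (-1.33) and GstE1 (-0.91) foremost. Of 32 UDP-glycosyltransferases, 6 (18.8%) fell, including Ugt37C1 (-0.92) and Ugt37C2 (-0.76), and 0 rose. Catalase, Cat, which breaks down hydrogen peroxide and was named after its values were seen, averaged 1860 ± 28.9 CPM in HR3-RNAi refed larvae and 1480 ± 57.6 CPM in control refed larvae (log2 fold change 0.31).

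Ecdysone-response genes, among them the partners and targets of HR3 in the metamorphic cascade, did not pass the test. Of 22 tested, 0 were called, beside 11.0% over all genes, with a median log2 fold change of 0.06. There were 1 or 2 calls without HR3-RNAi refed replicate 2 or any 1 of the control refed libraries. The receptor EcR averaged 49.6 ± 4.13 CPM in HR3-RNAi refed larvae and 45.9 ± 3.1 CPM in control refed larvae (0.09, adjusted p = 0.392). ftz-f1, which HR3 is known to induce in prepupae, averaged 17.8 ± 1.43 CPM in HR3-RNAi refed larvae and 20.2 ± 1.49 CPM in control refed larvae (-0.20, adjusted p = 0.103), and Eip75B, the receptor that antagonises HR3, averaged 50.8 ± 2.17 CPM and 47.2 ± 3.85 CPM in the same groups (0.09). Of 16 other nuclear receptors tested, 0 were called, and on lists this short 0 calls is not far from 11.0%. On low cholesterol Eip75B was called higher in HR3-RNAi larvae (0.26, adjusted p = 0.0477), and 1 of 22 ecdysone-response genes tested there rose. A miss of the threshold leaves small changes possible: in counts simulated for this comparison, 20% of genes changed by 0.5 on the log2 scale were called, and 97% of those changed by 1. The simulation changed 100 genes at each size among 11262, all with a mean log2 CPM above 1. With fewer changed genes than were called here, its shares do not carry over directly to these data.

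Of 11 ecdysone synthesis genes, 1 (9.09%) rose, beside 3.36% over all genes. sro (shroud), which acts in an early step of the pathway in the prothoracic gland, had 18.6, 13, 10.5, 14.1 and 11.1 CPM in HR3-RNAi refed libraries, against 5.24, 3.25, 6.57, 5.45 and 3.31 CPM in control refed libraries (log2 fold change 1.48, SE 0.216, adjusted p = 0.00176). All HR3-RNAi pools exceeded all control pools. spok, of the same gland, averaged 7.72 ± 1.1 CPM in HR3-RNAi refed larvae and 5.32 ± 1.39 CPM in control refed larvae (0.52, adjusted p = 0.08) and sad 4.52 ± 0.196 CPM and 4.30 ± 0.594 CPM in the same groups (0.06). Of 5 juvenile hormone breakdown genes tested, a list chosen after values were seen, 3 rose and 2 fell. The juvenile hormone esterase Jhe rose by 1.03 on the log2 scale and Jhedup by 1.76, and the lowest log2 fold change of the list was -0.2. The list summed to 514 to 567 CPM in HR3-RNAi refed libraries and 518 to 590 CPM in control refed libraries.

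Genes of the insulin and TOR pathways were little changed. Of 45 tested, 4 (8.89%) rose and 0 fell (median -0.01), beside 3.36% and 7.67% over all genes. The count was 1 without any 1 of HR3-RNAi refed replicates 1 to 4, control refed replicate 1 or control refed replicate 5, and in the fit of all 30 libraries. Ilp6, the insulin-like peptide of the fat body, had 14.5, 10.6, 11.2, 9.17 and 7.79 CPM in HR3-RNAi refed libraries, against 7.28, 5.61, 6.89, 7.92 and 3.89 CPM in control refed libraries, with overlap between the groups (log2 fold change 0.74, adjusted p = 0.0430). Ilp5 (0.71), the secreted insulin-binding Sdr (0.60) and the GATOR1 subunit Iml1 (0.27), a brake on TORC1, were the others. mTor averaged 48.4 ± 2.95 CPM in HR3-RNAi refed larvae and 51.5 ± 3.92 CPM in control refed larvae (-0.10, adjusted p = 0.254), and Thor, which encodes the translation inhibitor 4E-BP, 104 ± 12.3 CPM and 106 ± 21.7 CPM in the same groups (-0.05). Of 21 autophagy genes, 0 were called, beside 11.0% over all genes.

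Some cuticle, tyrosine, neuronal and cell cycle genes were called, on lists of unlike size. Over all genes 3.36% rose and 7.67% fell. Of 71 cuticle protein genes, 8 (11.3%) rose and 8 (11.3%) fell. Lcp1 (0.66) and Cpr67Fa1 (1.96) were among the abundant ones that rose, while those that fell furthest, TwdlO (-3.89) and TwdlP (-2.57), averaged under 3 CPM in both groups. In the breakdown of tyrosine, a list chosen after values were seen, 4 of 7 genes (57.1%) rose and 0 fell. The number that rose was 2 without HR3-RNAi refed replicate 2, 4 or 5 or control refed replicate 3 or 4. Hpd had 77.4, 87.7, 68.8, 60.2 and 114 CPM in HR3-RNAi refed libraries, against 57.2, 31.1, 40.4, 41.6 and 49.5 CPM in control refed libraries (log2 fold change 0.88, adjusted p = 0.0113). Of 11 synaptic vesicle release genes, also listed after values were seen, 6 (54.5%) rose, among them nSyb (0.54), Syt7 (0.59) and Snap25 (0.57), and 2 (18.2%) fell. The number called was 4 or 5 without HR3-RNAi refed replicate 3 or 4 or control refed replicate 1, 3 or 5. Of 25 cell cycle genes 3 (12%) rose, the cyclins CycA, CycB and CycB3, by 0.25 to 0.27. The number called was 0 without HR3-RNAi refed replicate 4 or control refed replicate 5, and 1 without HR3-RNAi refed replicate 1 or 3 or control refed replicate 3. The clock gene tim rose (0.69), the 1 clock gene called, with 0 called without HR3-RNAi refed replicate 3 or 4 or control refed replicate 1, at 10.5 ± 1.63 CPM in HR3-RNAi refed larvae and 6.41 ± 1.51 CPM in control refed larvae. Of 22 immune-induced genes 2 (9.09%) fell, Drsl2 and TotA (-0.58), and 0 rose. However, 6 rose and 1 fell without control refed replicate 2, and 1 fell without HR3-RNAi refed replicate 2, 3 or 5.

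Markers of some tissues had 0 calls, and those of others were called. Of 6 hemocyte markers tested 33.3% were called, the collagen chains Col4a1 and vkg, and of 41 midgut genes 24.4%, beside 11.0% over all genes. Fat body (6 genes tested), salivary gland (9), muscle (7), Malpighian tubule (4) and imaginal disc (5) markers had 0 calls. Without control refed replicate 3, 5 salivary gland markers were called higher, and without control refed replicate 2, 1 imaginal disc marker. The fat body list summed to 98400 to 123000 CPM in HR3-RNAi refed libraries and 103000 to 119000 CPM in control refed libraries, and the muscle list to 21300 to 27500 CPM and 17400 to 26500 CPM in the same groups. The nervous system list, of which nSyb alone of 6 rose (0 without HR3-RNAi refed replicate 3 or 4 or control refed replicate 1, and 3 without control refed replicate 2), summed to 214 to 225 CPM in HR3-RNAi refed libraries and 184 to 218 CPM in control refed libraries. The prothoracic gland list, of which sro rose, summed to 22.3 to 31.4 CPM in HR3-RNAi refed libraries and 12.2 to 18.6 CPM in control refed libraries. Of the other markers of that gland tested, spok had a log2 fold change of 0.52 and sad of 0.06, and the part of the gland's share in the sro result was not tested.

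**Figure D4:**
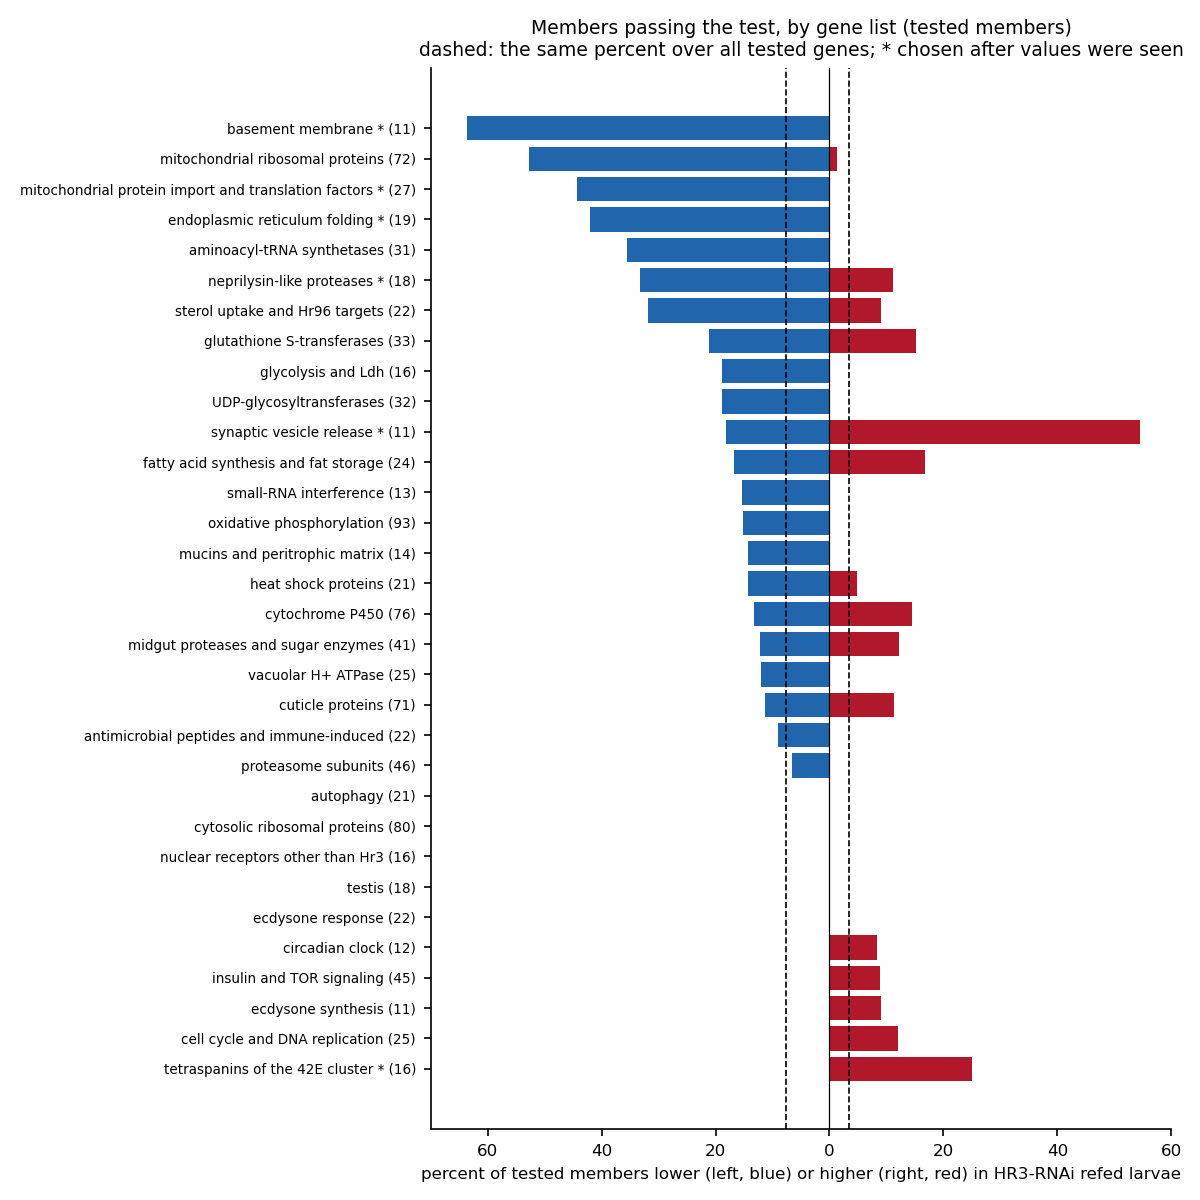
Percentage of tested members that fell (left) and rose (right) in HR3-RNAi refed against control refed larvae, for each gene list with at least 10 tested members, with dashed lines at 7.67% and 3.36%, the shares over all 11450 genes; an asterisk marks lists chosen after values were seen. Basement membrane and mitochondrial ribosomal genes have the highest shares that fell, while ecdysone-response, nuclear receptor, autophagy and cytosolic ribosomal genes have no member called.

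The HR3-RNAi and control groups on low cholesterol are other libraries of the same genotypes and show which differences recur. There, 238 of 11551 genes (2.06%) were called, 122 higher and 116 lower. Of the 1258 genes called after refeeding and tested on both diets, 160 were also called on low cholesterol in the same direction and 0 in the opposite one, and 1020 (81.1%) had the same sign, beside 59.8% of the genes not called after refeeding. Of those that changed by more than 1 on the log2 scale after refeeding, 152 of 158 (96.2%) had the same sign and 71 were called. In the other direction, of 236 genes called on low cholesterol and tested after refeeding, 222 had the same sign and 160 (67.8%) were called.

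Some of the large differences were close in size on both diets and others were smaller on low cholesterol. On low cholesterol the log2 fold change was 6.65 for CG1304, 4.64 for Cyp12d1-d, 3.83 for *w*, -2.92 for CG34215, -5.93 for Drsl2 and -2.86 for Adh. It was 1.72 for LysD, 1.93 for LysB, 0.04 for LysP, -1.89 for Odc2 and -1.70 for Odc1, each nearer to 0 than after refeeding. These genes were named for their large refed change, so a smaller value on the other diet is partly given by the choice. In edgeR's interaction contrast their adjusted p was 0.813 (LysD), 0.889 (LysB), 0.678 (LysP), 0.627 (Odc2) and 0.843 (Odc1). LysC was called higher on low cholesterol too, at 12.2 to 29.3 CPM in HR3-RNAi libraries and 0 to 0.0653 CPM in control libraries. Of the 10 largest rises 7 were also called on low cholesterol, LysD, LysB and LysP being the exceptions, and of the 10 largest falls 7 were, Obp83cd, Nepl11 and CG14820 being the exceptions. LysP averaged 2.42 CPM in HR3-RNAi larvae and 2.38 CPM in controls on low cholesterol, and its difference between the diets had an unadjusted p of 0.0271.

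A test of the difference itself found little that was particular to the refed state. With all 30 libraries in the fit, 0 of 12178 genes had an interaction of HR3-RNAi with refeeding at an adjusted p under 0.05 (edgeR's quasi-likelihood test), and 818 (6.72%) had one at an unadjusted p under 0.05; DESeq2's Wald test called 36. With the 20 HR3-RNAi and control libraries alone edgeR called 1 gene, CadN, the neuronal adhesion protein N-cadherin (FBgn0015609). CadN had 27.7, 31, 26.7, 29.6 and 28.2 CPM in HR3-RNAi refed libraries, against 15.1, 14.4, 14.9, 15.1 and 12.8 CPM in control refed libraries, and averaged 24.0 ± 2.33 CPM in HR3-RNAi larvae and 20.2 ± 1.67 CPM in controls on low cholesterol. Its log2 fold change was 0.97 after refeeding and 0.25 on low cholesterol (interaction 0.73, adjusted p = 0.00685 in the 20-library fit and 0.271 in the 30-library fit). The absence of other calls does not show that the effect was alike on both diets.

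**Figure D5:**
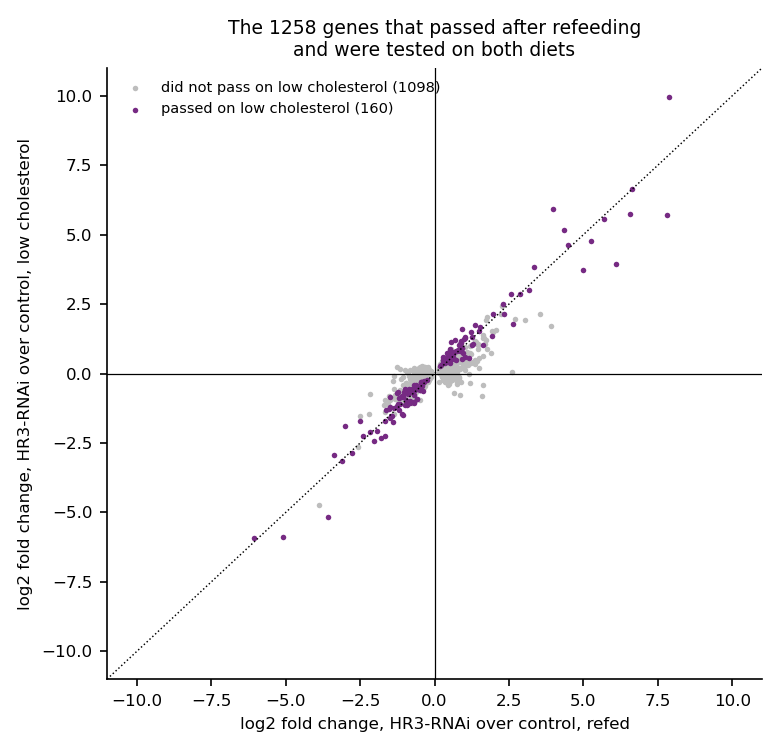
Log2 fold change of HR3-RNAi over control on low cholesterol (y axis) against that after refeeding (x axis) for the 1258 genes called after refeeding and tested on both diets, 1 point per gene, with the 160 also called on low cholesterol in colour. CG1304, Cyp12d1-d and Drsl2 lie near the diagonal, while LysD and LysP lie closer to 0 on low cholesterol.

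TOR-RNAi refed larvae carried the same driver and a different RNAi transgene, and were compared with HR3-RNAi refed larvae directly. Of 11694 genes tested, 727 (6.22%) differed, 319 (2.73%) higher and 408 (3.49%) lower in HR3-RNAi larvae. The number was 438 without HR3-RNAi refed replicate 2, 439 without replicate 3, 458 without replicate 4, and 1900 without TOR-RNAi refed replicate 4. Of the 385 genes that rose against controls, 80 were also higher than in TOR-RNAi larvae and 5 were lower. Of the 878 that fell, 138 were also lower than in TOR-RNAi larvae and 11 were higher. These genes were picked by the same 5 HR3-RNAi refed libraries that enter this test. An excess in the same direction is therefore partly given by the choice. Against the same controls TOR-RNAi larvae had 1338 genes called (11.7%), 416 (3.64%) higher and 922 (8.07%) lower, and since both contrasts use the same 5 control libraries their values are only set side by side.

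Some of the largest differences from controls were shared in size by TOR-RNAi larvae and others were not. Of the 10 largest rises 7, and of the 10 largest falls 3, were called in the same direction in TOR-RNAi larvae against these controls. Hsp70Bb, LysD, LysB, Prx6c and CG15534 were among the 7 and were not called between the RNAi genotypes. Over all called genes the numbers were 100 of 376 tested that rose, and 382 of 878 that fell. The shared control libraries tilt these counts towards agreement. CG1304 averaged 56.5 ± 10.1 CPM in HR3-RNAi, 63.6 ± 14.8 CPM in TOR-RNAi and 0.550 ± 0.121 CPM in control refed larvae, and was not called between the RNAi genotypes (log2 difference -0.18, adjusted p = 0.601). Alp7 and Drsl2 were low in both RNAi genotypes too, with log2 fold changes against controls of -1.53 (HR3-RNAi) and -1.55 (TOR-RNAi) for Alp7, and -6.05 and -5.41 for Drsl2. Cyp12d1-d, by contrast, averaged 27.8 ± 5.67 CPM in HR3-RNAi, 1.84 ± 0.457 CPM in TOR-RNAi and 1.23 ± 0.204 CPM in control refed larvae (HR3-RNAi over TOR-RNAi 3.91, adjusted p = 1.47e-06).

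The *w* transcript averaged 135 ± 20.1 CPM in HR3-RNAi, 21.8 ± 2.72 CPM in TOR-RNAi and 13.1 ± 1.72 CPM in control refed larvae (HR3-RNAi over TOR-RNAi 2.62, adjusted p = 8e-07). CG34215 averaged 5.74 ± 1.78 CPM in HR3-RNAi, 52.0 ± 15.8 CPM in TOR-RNAi and 59.8 ± 5.21 CPM in control refed larvae, so that it was low in HR3-RNAi larvae against both (HR3-RNAi over TOR-RNAi -3.19, adjusted p = 4.58e-05). The same held for Adh, at 0.654 CPM in HR3-RNAi, 5.21 CPM in TOR-RNAi and 4.49 CPM in control refed larvae. Cyp6a17 lay on opposite sides of the controls, at 4.40 ± 0.672 CPM in HR3-RNAi, 43.8 ± 5.83 CPM in TOR-RNAi and 16.4 ± 6.12 CPM in control refed larvae. Against controls its log2 fold change was -1.92 with HR3-RNAi and 1.39 with TOR-RNAi. betaTry averaged 276 ± 38.3 CPM in HR3-RNAi, 790 ± 124 CPM in TOR-RNAi and 575 ± 80.7 CPM in control refed larvae, and its log2 fold change against controls was -1.08 in HR3-RNAi larvae and 0.44 in TOR-RNAi larvae, where it did not pass the test (adjusted p = 0.0534). Against the same controls, the mitochondrial ribosomal list had a median of -0.26 with HR3-RNAi and -0.42 with TOR-RNAi, and 1 member was higher and 1 lower between the RNAi genotypes, mRpL37 being the higher one, at 49.4 ± 2.47 CPM in HR3-RNAi, 22.1 ± 4.73 CPM in TOR-RNAi and 31.5 ± 2.45 CPM in control refed larvae.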

How the data were processed

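RNA from whole larvae was extracted on RNeasy columns and sequenced by Novogene. Processing notes with the samples name CASAVA, HISAT2, StringTie, featureCounts, DESeq2 and edgeR; versions, settings, strand handling and genome build are not given in the sources used here. The deposited table holds raw read counts per gene, without normalization, made by the authors for 17713 features, and FPKM values, also deposited, which were not used. The labels and the methods give different ages and a different induction time for the animals, and the labels' times are used here.

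Counts were compared in R 4.3.3 with edgeR 4.0.16 (TMM, filterByExpr, quasi-likelihood F-test) on the 10 refed libraries, and a gene was called at a false discovery rate under 0.05 (Benjamini-Hochberg). Log2 fold changes are HR3-RNAi over control, with standard errors, and CPM values use TMM-scaled library sizes. The low-cholesterol groups and the HR3-RNAi and TOR-RNAi refed groups were fitted likewise, and the interaction of genotype with diet was tested in a fit of all 30 libraries. The study's own test, DESeq2's Wald test (1.42.0), was an alternative, as were its size factors, no filter, a stricter filter (1 CPM in 5 libraries), the replicate number as a block, the summed roX1 and roX2 level as a covariate, and leaving out each library. The script was tested on simulated data. A level of 3 counts corresponded to 0.0913 to 0.158 CPM in the refed libraries, which covers counting error only. No pair of libraries agreed within sampling noise.

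Members of gene lists, and all lists, were chosen with earlier results of these data known; lists chosen after values were seen in this comparison cover lysozymes, mitochondrial protein import, basement membrane, tyrosine breakdown, juvenile hormone breakdown, polyamines, lipoprotein transport, synaptic vesicle release, neprilysins, alkaline phosphatases, tetraspanins and endoplasmic reticulum folding. Named genes are the 10 largest rises and falls among called genes with a mean log2 CPM of at least 1 and no overlap between groups, up to 4 called members per list with the largest change (where none is called, the 2 with the highest mean), and the targeted, marker and roX genes. Further list members named in the text, and CadN, Adh, CG6295, Cat and Cyp12d1-p, were chosen after their values were seen. Of the features, 306 FlyBase IDs and 155 unannotated loci had no symbol.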

Additional observations from a re-analysis of the deposited data

Results flagged for a closer look

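Single libraries stood far from the other 4 of their group, by Dixon's test at the 95% level, in 18 of 314 groups of 5 values tested (5.73%), where chance flags about 1 in 20. HR3-RNAi refed replicate 5 accounted for 6: it was the highest of its group for Nepl11 at 7.67 CPM (others 2.69 to 3.75), Col4a1 at 1270 CPM (1200 to 1220), GstD5 at 15.6 CPM (9.81 to 11.4), TwdlO at 0.456 CPM (0 to 0.0712), TwdlP at 1.37 CPM (0.187 to 0.355) and hgo at 29 CPM (16.9 to 20.2). In each of the first 5 genes it lay nearest to the controls, and in hgo farthest from them. HR3-RNAi refed replicate 1 was high for ImpL2 at 66.4 CPM (60.1 to 61.3) and for TotA at 123 CPM (69 to 83.4). HR3-RNAi refed replicate 4 was low for Sil1 at 25.4 CPM (30.3 to 31.2).

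Among controls, refed replicate 4 was high for Hr3 at 0.82 CPM (0.105 to 0.199) and roX1 at 162 CPM (10.2 to 52), and low for Prosbeta4 at 78 CPM (86.4 to 89.3) and Plod at 102 CPM (134 to 141). Control refed replicate 5 was high for mRpL37 at 35.7 CPM (29.6 to 31.3) and low for Sil1 at 31.6 CPM (34.9 to 36.2). Control refed replicate 1 was low for ImpL2 at 52.1 CPM (61.1 to 63.9), replicate 2 was high for Obp83cd at 11 CPM (3.2 to 4.03), and replicate 3 was high for LysC at 0.626 CPM (0 to 0.0995).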

How the results depend on the processing

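The direction of the comparison with refed controls, more genes lower than higher, held in each alternative run, while the number called did not. It was 1263 in the fit reported, 484 with all 30 libraries, 803 with the roX covariate, and 765 to 1662 with 1 library left out. On low cholesterol, DESeq2's Wald test called 493 genes in place of 238, and leaving out 1 library gave 162 to 277. For the interaction, 1 gene was called with 20 libraries and 36 by DESeq2's Wald test, in place of 0, and leaving out 1 library gave 0 each time. For HR3-RNAi against TOR-RNAi, DESeq2's Wald test called 1339 genes in place of 727, and leaving out 1 library gave 438 (without HR3-RNAi refed replicate 2) to 1900 (without TOR-RNAi refed replicate 4). Without a filter 951 refed genes were called, 43.2% of them higher, against 30.5% in the fit reported. The Hr3 difference ranged from -0.14 to 0.039 CPM with 1 library left out.

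Same-numbered refed libraries did not deviate together (correlations -0.624 to 0.165, with no library closest to its own number), so the numbers do not pair them. With the replicate number as a block, 900 genes were called refed, 161 on low cholesterol, 0 for the interaction and 469 between HR3-RNAi and TOR-RNAi.

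Of 129 named genes called, 62 stayed called in each alternative. Those that changed sign were uncalled in the fit reported. With the roX covariate, log2 fold changes were -0.241 for S-Lap1, -0.298 for fest and -0.084 for roX2, in place of 0.866, 0.732 and 0.708, and -0.083 for Act57B, -0.015 for Mhc and 0.015 for RpL41. For Hnf4 they were 0.008 with DESeq2's size factors, 0.007 with its Wald test and in the 30-library fit, 0.022 without a filter and 0.017 with a stricter one; for Lsp1beta they were 0.011 without a filter and 0.006 with a stricter one. With 1 library left out, the values ran from -0.026 to 0.02 for Hnf4, -0.038 to 0.013 for Lsp1beta, -0.136 to 0.064 for RpL41, -0.065 to 0.084 for Act57B, -0.017 to 0.047 for ImpL2 and 0 to 0.095 for Uro. The causes were not tested. Depth limits genes near 0.1 CPM, Hr3 among them, and changes of 0.5 on the log2 scale were found in 20% of simulated cases.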

Other observations

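Genes of the vacuolar H+ ATPase, the pump that acidifies lysosomes and energises gut and tubule membranes, had a lower summed level than controls after refeeding and a higher one on low cholesterol, with overlapping ranges. After refeeding 3 of 25 tested (12%) fell (Vha68-2 by 0.26, Vha16-1 and Vha36-1 by 0.24 each on the log2 scale), beside 7.67% of all genes. Of the 1429 genes with a mean above 100 CPM, 253 fell. On low cholesterol 0 genes of the list were called. Vha68-2 averaged 1410 ± 88.2 CPM in HR3-RNAi refed larvae and 1670 ± 139 CPM in control refed larvae, and on low cholesterol 1690 CPM in HR3-RNAi larvae and 1470 CPM in controls. The summed level of the list was 8410 to 10000 CPM in HR3-RNAi refed and 9490 to 11500 CPM in control refed libraries. On low cholesterol it was 9570 to 12100 CPM in HR3-RNAi and 8270 to 10400 CPM in control libraries. In edgeR's interaction contrast, 10 of 27 members tested passed an unadjusted threshold of 0.05, beside 6.72% of all genes. Vha68-2 and Vha16-1 were among the 10, and 0 members passed after adjustment over all genes. The number that fell was 0 without HR3-RNAi refed replicate 2 or 4 or control refed replicate 1, 3 or 5, 1 without HR3-RNAi refed replicate 1 or 3 or control refed replicate 2, and 10 without control refed replicate 4.

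Hpd, of tyrosine breakdown, averaged 81.6 ± 20.7 CPM in HR3-RNAi refed larvae and 43.9 ± 9.86 CPM in control refed larvae, and on low cholesterol 75.9 CPM in HR3-RNAi larvae and 94.2 CPM in controls. Hpd and GstZ2, the maleylacetoacetate isomerase of the same pathway, passed an unadjusted threshold of 0.05 in the interaction contrast, and neither passed after adjustment. Their list was chosen after its refed values were seen, and those values enter that contrast.

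On the X chromosome 155 of 1818 tested genes were called (8.53%), 28 higher and 127 lower, beside 11.2% on 2L, 12% on 2R, 11.2% on 3L and 11.5% on 3R. None of 19 genes listed on the mitochondrial genome was called, with a median log2 fold change of -0.28. Among 13 genes of small-RNA interference, 2 (15.4%) fell, pst (-0.31) and r2d2 (-0.22), beside 7.67% over all genes. The number called was 0 without HR3-RNAi refed replicate 1 or control refed replicate 1, 3 or 5. It was 1 without HR3-RNAi refed replicate 2, 3 or 4 or control refed replicate 2, and 4 without control refed replicate 4. r2d2 encodes a partner of Dicer-2. CG31380, chosen after its values were seen, had 3 to 9 counts in HR3-RNAi refed libraries and 110 to 189 counts in control refed libraries.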
